A study of Mus musculus with 76 samples.

Results

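Polycomb complex genes, 10 in number, were followed through the developing mouse diencephalon: Ezh1, Ezh2, Eed, Suz12 and Jarid2 of Polycomb repressive complex 2 (PRC2), and Cbx2, Cbx7, Cbx8, Rnf2 and Bmi1 of complex 1 (PRC1). They were listed by name, with earlier results of these data known, and are 10 of the 56923 genes in the count tables. RNA was counted in 16 samples, 4 in each of 4 groups: wild type C57BL/6J (WT) and hs754-humanized (HUM) embryos at the embryonic days E11.5 and E17.5. HUM embryos are homozygous for the human version of the enhancer hs754 in place of the mouse sequence on chromosome 13, in a line crossed back to C57BL/6J. Each sample pooled the diencephalon of 6 embryos (E11.5) or 3 embryos (E17.5) of 1 litter, so a replicate is a litter and not an embryo. Peak lists of H3K4me3, H3K27ac and H3K27me3 (2 litters per genotype at E11.5, 3 at E17.5) and of CTCF (E17.5 only, 3 per genotype) describe the chromatin at these genes.

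PRC2 places methyl groups on lysine 27 of histone H3, a mark of silent developmental genes. Ezh1 and Ezh2 are its alternative catalytic subunits, Eed and Suz12 are needed for its activity, and Jarid2 helps to guide it to chromatin. PRC1 ubiquitinates histone H2A through Rnf2 (Ring1B) together with a Pcgf protein such as Bmi1 (Pcgf4), and its Cbx subunits read the mark that PRC2 leaves. Ezh2 is known to be abundant in dividing progenitors, including those of the nervous system, and Ezh1 in cells that have left the cell cycle. In vertebrates Polycomb complexes gather at CpG islands, stretches rich in the CG dinucleotide.

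All 10 genes start in CG-rich sequence. In the 1000 bases centred on the start of the canonical transcript (GRCm39, the build of the deposited files) they hold 65 (Cbx7) to 142 (Bmi1) CG dinucleotides, against a median of 44 over 21603 protein-coding promoters. The ratio of observed to expected CG lies between 0.672 (Cbx8) and 1.0 (Cbx2), against a median of 0.579. The 150 bases just upstream of the annotated gene start are shown for the 2 catalytic subunits, whose RNA moved in opposite directions, and for Cbx2 and Cbx8, which carried H3K27me3 at every stage. All lie outside annotated exons, run 5′ to 3′ on the strand of the gene, and have each CG in capitals.
Ezh2, chr6:47572332-47572481, minus strand: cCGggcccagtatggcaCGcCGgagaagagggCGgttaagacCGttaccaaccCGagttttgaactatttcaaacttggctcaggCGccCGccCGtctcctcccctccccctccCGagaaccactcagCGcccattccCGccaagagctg
Ezh1, chr11:101117316-101117465, minus strand: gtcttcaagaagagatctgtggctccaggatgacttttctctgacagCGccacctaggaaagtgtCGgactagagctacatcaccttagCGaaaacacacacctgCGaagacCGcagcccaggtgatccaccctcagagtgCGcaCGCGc
Cbx2, chr11:118913638-118913787, plus strand: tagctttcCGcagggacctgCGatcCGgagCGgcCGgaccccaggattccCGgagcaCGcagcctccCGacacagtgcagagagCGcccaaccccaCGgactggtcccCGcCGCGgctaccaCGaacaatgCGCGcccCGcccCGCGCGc
Cbx8, chr11:118931796-118931945, minus strand: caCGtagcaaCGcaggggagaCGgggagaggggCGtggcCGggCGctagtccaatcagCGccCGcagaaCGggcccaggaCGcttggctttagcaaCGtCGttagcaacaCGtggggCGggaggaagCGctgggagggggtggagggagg
These stretches hold 12 (Ezh2), 8 (Ezh1), 20 (Cbx2) and 15 (Cbx8) CG dinucleotides. The letters TTTCCCGC or TTTGGCGC, forms of the E2F binding site, were looked for on both strands of the 300 bases upstream of each canonical start. Suz12 held the only match among the 10 genes, and 1.83% of all 21603 promoters held one. Other forms of the site, inexact matches and sites downstream of the start were not looked for, so a gene without a match may still hold a site.

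The libraries held 16414369 to 24272569 counts on genes. WT E17.5 replicate 1 stood apart from its group: counts compared with those of its group mates gave a chi-square per degree of freedom of 248 to 305, against 8.23 to 24.1 among the other 3. Of its reads 4.29% mapped outside annotated exons (within introns or between genes), against 9.38% to 12.2%. The WT stage difference of each member is therefore given with and without it. The libraries also differed by GC content. The median log2 deviation from the mean of the 16 samples was taken for the lowest quintile of genes by GC content minus that for the highest quintile. It was -0.96 to 0.11 in the 8 libraries of E11.5 and 0.42 to 1.17 in 7 of E17.5, but -1.09 in WT E17.5 replicate 1. Diencephalic markers were present throughout (summed level of 10 genes, 1337 to 2146 CPM), against 32.5 to 85.4 CPM for 4 cortical markers and 1.36 to 16.2 CPM for 6 of midbrain and hindbrain.

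Between E11.5 and E17.5 the WT diencephalon lost most of its Ezh2 and Cbx2 RNA and gained Ezh1. Of the 10 genes, all tested, 1 rose (Ezh1) and 4 fell (Ezh2, Eed, Jarid2, Cbx2) at an adjusted p under 0.05 (edgeR quasi-likelihood test over all genes). That compares with 55.7% of all tested genes called in either direction, 29.0% higher and 26.7% lower, so a share of 5 in 10 is near the background. In HUM embryos 2 rose (Ezh1, Suz12) and 5 fell (Ezh2, Eed, Jarid2, Cbx2, Cbx8), against 77.7% called over all genes, 38.2% higher and 39.5% lower. The median absolute log2 fold change of all tested genes was 0.83 in WT and 1.06 in HUM embryos. Ezh2 and Cbx2 exceeded it in both genotypes, and Jarid2 (-0.79 and -0.45) in neither. Ezh1 (1.26) and Eed (-1.48) exceeded it in WT and were near it in HUM embryos (1.06 and -1.05). Suz12 (0.71) and Cbx8 (-0.38) lay under it in HUM embryos. Ezh1, Ezh2, Eed, Jarid2 and Cbx2 also had no overlap between the stages in either genotype, as did Cbx8 in HUM embryos, against 50.3% (WT) and 71.8% (HUM) of all genes.

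**Figure D1:**
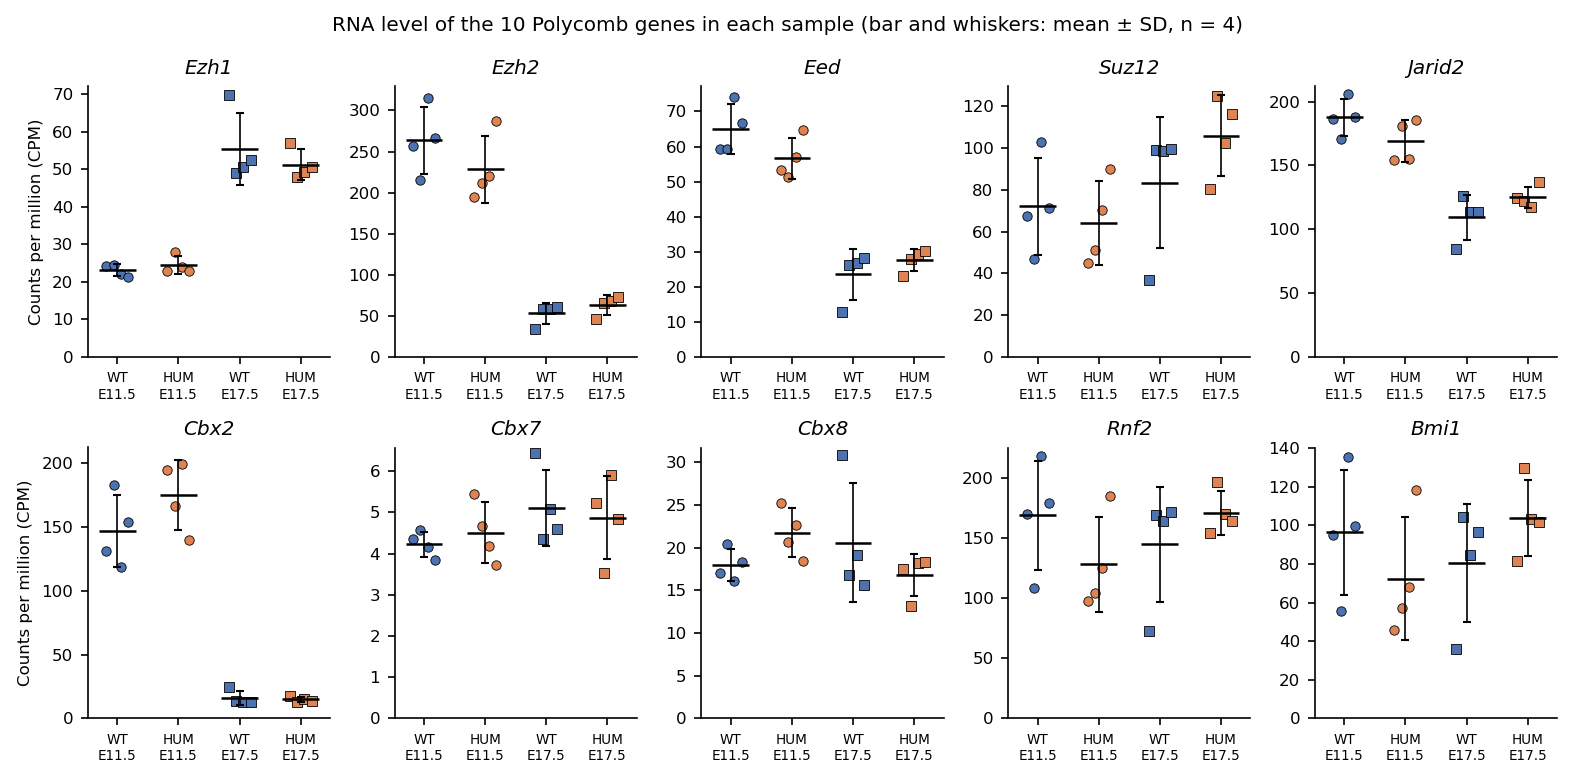
RNA level of each gene (CPM, linear axis from 0) in the 16 samples, blue for WT and orange for HUM, circles for E11.5 and squares for E17.5, with the mean and SD of each group (n = 4). Ezh2, Eed, Jarid2 and Cbx2 are lower and Ezh1 higher in all E17.5 samples, while Suz12, Rnf2 and Bmi1 spread widely within groups and are lowest at E17.5 in WT replicate 1.

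Ezh2, the catalytic subunit of dividing cells, stood at 257, 215, 316 and 266 CPM (counts relative to library size, with TMM scaling) in the 4 WT samples of E11.5 and at 34.3, 58.5, 58.3 and 60.8 CPM in those of E17.5. Every E17.5 sample lay below every E11.5 sample, and replicate 1 was the lowest of its group. The log2 fold change, E17.5 over E11.5, was -2.33 (SE 0.23, adjusted p = 1.38e-05), 5.02-fold lower, and -2.17 without replicate 1. HUM samples went from 194 to 287 CPM at E11.5 to 45.9 to 73.1 CPM at E17.5, a log2 fold change of -1.87 (SE 0.17, adjusted p = 9.22e-07).

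Ezh1, the other catalytic subunit, changed the opposite way. The WT samples gave 24.3, 24.5, 22.2 and 21.2 CPM at E11.5 and 69.8, 49.0, 50.7 and 52.5 CPM at E17.5. The E11.5 samples were within a few CPM of each other, and replicate 1 was the highest at E17.5. The log2 fold change was 1.26 (SE 0.18, adjusted p = 1.49e-04), 2.39-fold higher, and 1.12 without replicate 1. In HUM embryos it was 1.06 (SE 0.11, adjusted p = 3.10e-06).

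The ratio of Ezh2 to Ezh1 counts within a sample does not depend on library scaling. It was 10.6, 8.78, 14.2 and 12.5 in WT samples of E11.5, and 8.46, 7.61, 9.15 and 12.6 in HUM samples. At E17.5 it was 0.492, 1.19, 1.15 and 1.16 (WT) and 0.804, 1.37, 1.37 and 1.44 (HUM). No E17.5 sample came near the E11.5 range: the lowest E11.5 ratio was 7.61 and the highest E17.5 ratio 1.44. Over the 16 samples the mean log2 ratio fell by 3.26, which is 9.59-fold (exact permutation test within genotypes, two-sided, p = 0.000408, the smallest its 4900 arrangements can give; adjusted over 2 tests, 0.000816). Without WT E17.5 replicate 1 the log2 difference was -3.11. The fall was 3.59 in WT and 2.93 in HUM embryos (exact permutation p = 0.0286 in each, the smallest that 70 arrangements can give), and the difference between these falls was not tested. Between genotypes the difference, HUM minus WT, was -0.29 at E11.5 (exact permutation p = 0.257) and 0.37 at E17.5 (p = 0.429). These have opposite signs, and with the stages as strata they gave 0.04 (exact permutation p = 0.867).

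Per kb of the canonical transcript, the level of Ezh2 was 15.8 ± 3.24 times that of Ezh1 in WT samples at E11.5 (SD, n = 4) and 1.37 ± 0.464 times at E17.5, when replicate 1 alone had more Ezh1 (0.675). With the union of basic exons as the length, the means were 22.7 and 1.96.

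**Figure D2:**
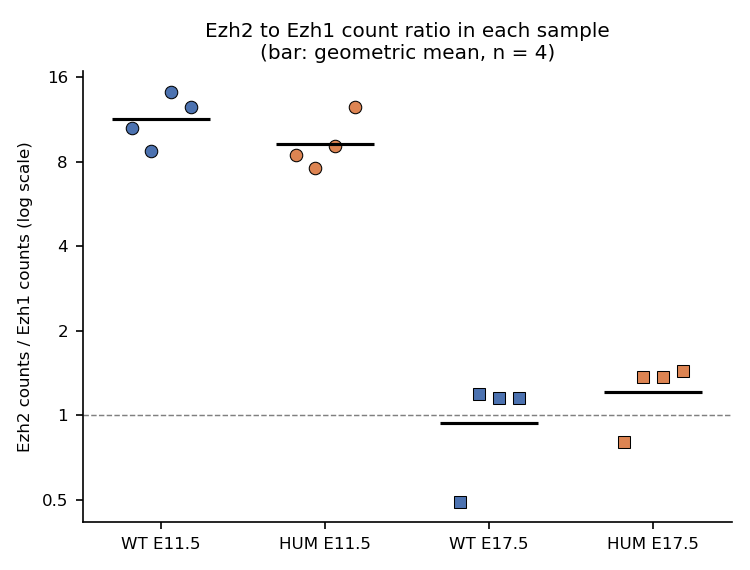
Ratio of Ezh2 to Ezh1 counts in each sample (log2 axis), with the geometric mean of each group (n = 4) and a dashed line at 1. The 8 E11.5 samples lie between 7.61 and 14.2 and the 8 E17.5 samples between 0.492 and 1.44.

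Eed, the PRC2 subunit that binds the methylated histone, gave 59.4, 59.4, 74.2 and 66.7 CPM in WT samples at E11.5 and 12.8, 26.3, 26.8 and 28.2 CPM at E17.5. Its stages did not overlap, with replicate 1 again lowest. Its log2 fold change was -1.48 (SE 0.25, adjusted p = 5.93e-04) in WT and -1.05 (SE 0.13, adjusted p = 1.19e-05) in HUM embryos, and -1.28 in WT without replicate 1.

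Jarid2, the accessory subunit, fell less. WT levels were 170.4 to 206 CPM at E11.5 and 84.4 to 126 CPM at E17.5, a log2 fold change of -0.79 (SE 0.18, adjusted p = 0.00306), and -0.70 without replicate 1. HUM embryos gave -0.45 (SE 0.11, adjusted p = 0.00282). The HUM call was lost with offsets for GC content (-0.23, adjusted p = 0.0600).

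Suz12, the other core subunit, was not called in WT tissue. Its WT values were 67.4, 46.8, 103 and 71.3 CPM at E11.5 and 36.6, 99.2, 98.9 and 99.5 CPM at E17.5. The samples of replicates 2, 3 and 4 at E17.5 were close to each other and replicate 1 lay far below them, under every E11.5 sample. The log2 fold change was 0.19 (95% interval -0.56 to 0.95, adjusted p = 0.647) and 0.44 (adjusted p = 0.0655) without replicate 1. In HUM embryos Suz12 rose by 0.71 on the log2 scale (SE 0.22, adjusted p = 0.0105), a call lost with GC offsets (-0.06, adjusted p = 0.613). The fold change of Suz12 against that of Ezh2 or Eed was not itself tested.

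Compared per kb of canonical transcript, the order of the PRC2 genes in WT tissue changed with stage. At E11.5 it ran Ezh2 (85.3 ± 13.4 CPM per kb, SD, n = 4), Eed (31.01 ± 3.39), Jarid2 (30.05 ± 2.34), Suz12 (14.8 ± 4.77) and Ezh1 (5.44 ± 0.377). At E17.5 the 5 genes lay closer together, and the order rested on WT replicate 1. With it Jarid2, Ezh2 (17.1 ± 4.04), Suz12 (17.1 ± 6.41), Ezh1 (13.1 ± 2.27) and Eed (11.2 ± 3.43) each lay within 1 SD of the next. Without it the order was Suz12 (20.3 ± 0.0625, n = 3), Ezh2 (19.2 ± 0.445), Jarid2 (18.8 ± 1.12), Eed (12.9 ± 0.470) and Ezh1 (11.96 ± 0.412), with Ezh2 and Jarid2 within 1 SD of each other. HUM embryos at E17.5 had the same order as those 3 WT samples, from Suz12 (21.7 ± 3.97, n = 4) to Ezh1 (12.1 ± 0.959). These orders hold for the canonical lengths alone. The union of basic exons is 6953 bases for Suz12, against 4881 in its canonical transcript. For Ezh2 the lengths are 3605 and 3090, and for Jarid2 7211 and 6248, so the place of Suz12 depends on the length used.

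**Figure D3:**
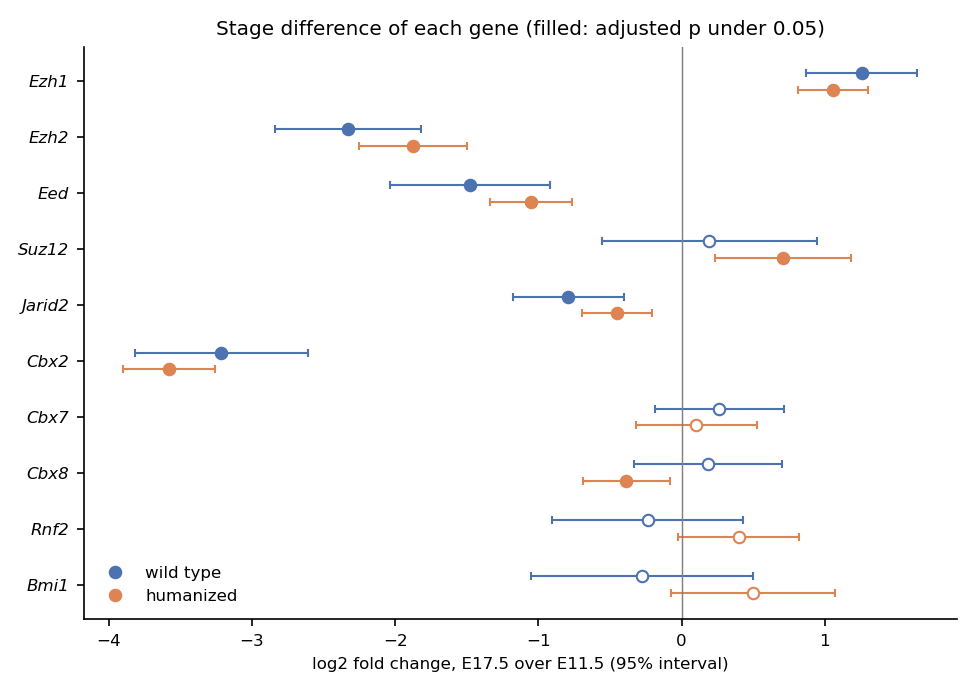
log2 fold change of each gene, E17.5 over E11.5, with its 95% interval, in WT (blue) and HUM (orange) embryos, 4 samples per stage, filled where the adjusted p is under 0.05. Cbx2 and Ezh2 show the lowest values in both genotypes (-3.21 and -2.33 in WT) and Ezh1 the highest (1.26).

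Cbx2, a PRC1 reader of H3K27me3, had the largest log2 fold change of the 10 genes in both genotypes. WT samples held 131, 183, 119 and 154 CPM at E11.5 and 24.7, 13.5, 12.9 and 12.6 CPM at E17.5. The last 3 were nearly equal and replicate 1 stood above them, yet far under the E11.5 range. The log2 fold change was -3.21 (SE 0.27, adjusted p = 4.82e-06), 9.27-fold lower, and -3.52 without replicate 1. In HUM embryos it was -3.58 (SE 0.15, adjusted p = 1.60e-09), 11.9-fold lower.

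The other Cbx members were low at both stages. Cbx8 stood at 16.97, 20.5, 16.1 and 18.3 CPM in WT at E11.5 and at 30.8, 16.7, 19.1 and 15.6 CPM at E17.5. Replicate 1 lay well above the E11.5 range and the others in or just below it, and the log2 fold change was 0.18 (95% interval -0.33 to 0.70) with it and -0.09 without it. HUM embryos gave -0.38 (SE 0.14, adjusted p = 0.0247). The HUM call was absent under 6 of the 15 alternatives, among them DESeq2, GC offsets (0.08) and the fit of all 16 samples. Cbx7 rested on 58 to 123 counts per sample, between 3.52 and 6.43 CPM, and its log2 fold change was 0.26 (95% interval -0.19 to 0.71) in WT, 0.13 without replicate 1, and 0.10 (-0.32 to 0.53) in HUM embryos. With GC offsets Cbx7 was called higher in both genotypes (0.45 and 0.71).

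Since the Cbx proteins are alternative subunits, their makeup was computed per length over 4 of them, Cbx2, Cbx6, Cbx7 and Cbx8. Cbx2 made up 61.8 ± 2.00% (SD, n = 4) of the 4 transcripts in WT embryos at E11.5 and 11.4 ± 0.451% at E17.5. In HUM embryos it went from 63.9 ± 2.88% to 12.99 ± 1.52%. Cbx6 took the largest share of the 4 at E17.5, 68.6 ± 3.09% in WT against 28.1 ± 1.36% at E11.5. Its own level was not called in the stage test (WT log2 fold change 0.55, adjusted p = 0.108; HUM 0.11, adjusted p = 0.486). WT E17.5 replicate 1 held 248 CPM of Cbx6 and the other 3 samples 107 to 128 CPM, and without it the log2 fold change was 0.17 (adjusted p = 0.238). Cbx8 went from 8.12% to 15.8% and Cbx7 from 1.96% to 4.15%. With union exon lengths the Cbx2 means were 68.6% and 15.1%. Shares add up to a fixed total, so a fall of Cbx2 lifts the others. WT E17.5 replicate 1 was at the edge of its group for all 4 shares, lowest for Cbx2 (10.9%, the others 11.2% to 11.9%), Cbx7 (3.05%, the others 3.91% to 5.03%) and Cbx8 (14.4%, the others 14.9% to 18.7%) and highest for Cbx6 (71.6%, the others 64.4% to 69.98%).

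**Figure D4:**
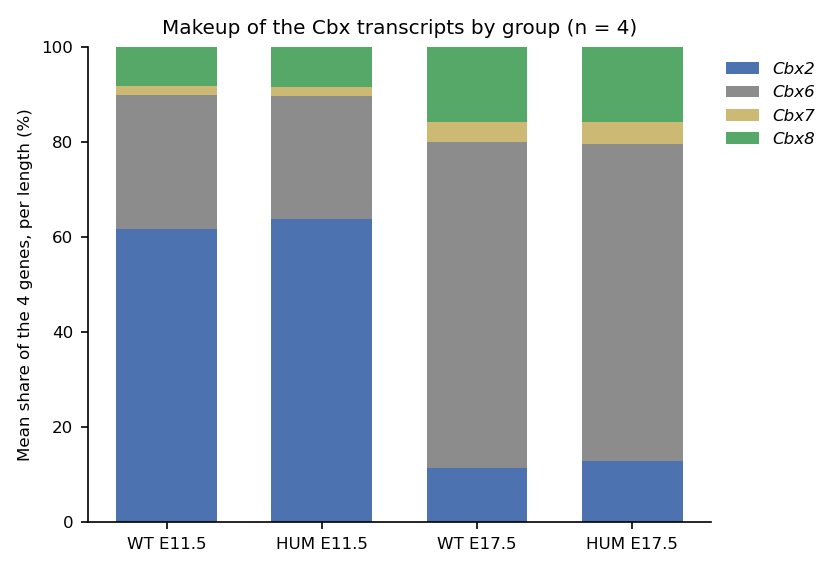
Mean share (%) of each of 4 Cbx genes in their summed level per kb of canonical transcript, by group (n = 4). Cbx2 takes 61.8% and 63.9% in the E11.5 groups but 11.4% and 12.99% in those of E17.5, and Cbx6 takes the larger part at E17.5.

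Rnf2, the ubiquitin ligase of PRC1, and its partner Bmi1 showed no stage difference beyond the spread in the main test. Rnf2 gave 108 to 218 CPM in WT at E11.5 and 72.9, 169.7, 164.7 and 172 CPM at E17.5. Bmi1 gave 55.7 to 135 CPM and then 36.0, 104, 84.6 and 96.8 CPM. The E11.5 samples spread widely, and at E17.5 replicate 1 lay below every other sample for both genes. The log2 fold changes were -0.24 (95% interval -0.91 to 0.43) for Rnf2 and -0.28 (-1.05 to 0.50) for Bmi1 in WT. Without replicate 1 they were -0.02 (-0.42 to 0.38) and -0.04 (-0.52 to 0.45). In HUM embryos they were 0.40 (-0.02 to 0.82) and 0.50 (-0.07 to 1.07). In HUM embryos each gene was called higher under 4 of the 15 alternatives, both of them with DESeq2 size factors (0.48 and 0.59), with the replicate block (0.45 and 0.59) and without HUM E11.5 replicate 4 (0.62 and 0.84), Rnf2 also with DESeq2 (0.44) and Bmi1 also with no filter on low counts (0.44).

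The values of Rnf2, Bmi1 and Suz12 changed with offsets for GC content. The canonical transcripts of Rnf2 (40.6% GC), Bmi1 (41.8%) and Suz12 (41.9%) lie below the median of the tested genes (49.5%). With offsets for GC content, chosen after the data were seen, the direction in HUM embryos turned: Rnf2 was called lower in WT (-0.76, adjusted p = 5.57e-05) and in HUM embryos (-0.75, adjusted p = 1.33e-05), and Bmi1 in WT (-0.59, adjusted p = 0.00399). Ezh1, Ezh2, Eed and Cbx2 kept their calls and directions in both genotypes under those offsets and under all 14 other alternatives. The part of GC content in the 3 low-GC genes was not tested further.

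Markers of cell types changed over the same interval. All 10 markers of cycling cells fell in both genotypes (summed level in WT 2442 to 2771 CPM at the earlier stage and 259 to 267 CPM at the later). Of 7 neural progenitor markers 6 fell (3778 to 3973 CPM, then 900.4 to 1146 CPM), and of 7 neuronal markers 6 rose (1627 to 2050 CPM, then 5530 to 6374 CPM) in each genotype. All 5 astrocyte markers rose, from 54.4 to 59.3 CPM to 332 to 437 CPM in WT. In this bulk tissue fewer cells of a type and less RNA per cell cannot be told apart, and the part of composition in the stage differences was not tested. Among cycling markers, WT E17.5 replicate 1 was highest for Mcm2 and Mcm5 (27.4 CPM each, group medians 11.3 and 10.4 CPM) and lowest for Mki67 (24.5 CPM, median 42.7) and Top2a (37.4 CPM, median 56.2), genes picked out after their values were seen.

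The genes with profiles nearest to Ezh2 over the 16 samples, by root mean square difference of centred log2 CPM among 14826 protein-coding genes, were Suv39h2 (0.17), Anp32e (0.18), Cep76 (0.18), Lgr5 (0.18) and Hat1 (0.19). Suv39h2 encodes an H3K9 methyltransferase, Anp32e a chaperone of histone H2A.Z and Hat1 a histone acetyltransferase. Nearest to Ezh1 were Mmd (0.09), Necap1, Kctd7, Trib2 and Meaf6 (0.11). Meaf6 is a subunit of histone acetyltransferase complexes and Necap1 takes part in endocytosis at synapses. The samples share their stage groups, so the likeness includes that of the stage difference.

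Among 37 other Polycomb genes 36 were tested, and 7 rose and 9 fell in WT with 20 not called, a median log2 fold change of 0.0025, against -0.01 over all genes and -0.26 for the 10 members. The share called, 44.4%, compares with 55.7% of all genes. Without WT E17.5 replicate 1, 11 rose and 14 fell, a share of 69.4% against 72.3% of all genes. In HUM embryos 13 rose and 16 fell, a share of 80.6% against 77.7%. The 4 with the largest rise in WT were Scml4 (3.92), Phc3 (1.39), Asxl3 (1.32) and Scml2 (1.25). Scml4 is a relative of a fly Polycomb protein and went from 2.23 to 4.72 CPM at E11.5 to 48.8 to 59.3 CPM at E17.5. The 4 with the largest fall were Epop (-3.13), a PRC2 accessory subunit, Phc2 (-1.80), a Polyhomeotic subunit of PRC1, Rbbp4 (-1.48), a histone chaperone shared by PRC2 and other complexes, and Ring1 (-1.37), the paralog of Rnf2. All 8 were called in the same direction in WT without replicate 1, and in HUM embryos (Epop -4.17, Phc2 -2.40, Rbbp4 -1.88, Ring1 -1.74, Scml4 4.32, Phc3 2.18, Asxl3 2.08, Scml2 2.14). Ring1, the other histone ubiquitin ligase, went from 36.4 ± 5.75 to 14.2 ± 3.75 CPM (SD, n = 4) in WT.

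None of the 10 genes was called between genotypes at E11.5 or E17.5, or for the interaction of genotype and stage. The same held over all genes, with 0 called (0%) of 17816, 18763 and 20234 tested by edgeR. At an unadjusted p under 0.05 there were 1058, 207 and 1610 genes. DESeq2 called 2, 1 and 0, none of them a Polycomb member. The member nearest to a call was Cbx8 in the interaction (log2 difference -0.57, 95% interval -1.16 to 0.02, edgeR adjusted p = 0.462). The 95% intervals of the members at E11.5 ran from -1.13 (Bmi1) to 0.56 (Cbx2), and at E17.5 from -0.84 (Cbx8) to 1.03 (Bmi1). In simulated counts the test recovered 75 of 100 genes changed 2-fold between genotypes at the earlier stage and 22 of 100 at the later. Those genes were drawn at random from all tested genes above a low mean count, so this recovery is not that of the members. Without WT E17.5 replicate 1 no member was called at E17.5 or in the interaction either, and the Cbx8 value was -0.30. No member had separate groups by genotype, against 2.50% (E11.5) and 1.21% (E17.5) of all genes. Suz12 and Cbx8 were called by stage in HUM embryos only, and neither was called in the interaction (Suz12 0.52, 95% interval -0.38 to 1.41).

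Most promoters of the 10 genes carried the same marks in the lists of both stages. Within 1 kb of the annotated gene start, H3K4me3, a mark of active or poised promoters, was called in every list of both stages and genotypes for 9 of the 10 genes. Over protein-coding genes, 60.8% (E11.5) and 61.0% (E17.5) had a peak in every WT list. The exception was Cbx7, whose annotated span begins 38335 bases upstream of its canonical start. At the canonical start all 10 had H3K4me3 in every list, against 63.9% and 64.1%. H3K27ac, a mark of active promoters and enhancers, was present in every WT list for 8 genes early and 9 late, against 45.2% and 54.8% (47.7% and 57.4% at canonical starts). The authors report that their antibody lot for H3K27ac also bound an acetylated form of histone H2B. They used more chromatin for it at E17.5 than at E11.5, and the part of either in the H3K27ac stage differences was not tested. The Ezh1 promoter was in 1 of the 2 earlier WT lists and in all 3 later ones. Of the 30 pairs of gene and mark, Fisher's exact test of 4 lists against 6 called none, and the lowest unadjusted p was 0.4, for H3K27ac at Ezh1 (3 of 4 lists, then 6 of 6). At the other 29 pairs the peak was in all lists or in none. The smallest p of such a test is 0.00476, or 0.143 adjusted over 30 pairs, so 1 fully separated pair alone could not have been called.

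H3K27me3, the product of PRC2, lay at 4 of the 5 PRC1 genes and at none of the 5 PRC2 genes. It was called in all 10 lists within 1 kb of the starts of Cbx2, Cbx8 and Bmi1, and of Cbx7 at its canonical start. No list had a peak at Ezh1, Ezh2, Eed, Suz12, Jarid2 or Rnf2. Over protein-coding genes 18.8% (E11.5) and 18.9% (E17.5) had a peak in every WT list, and 19.5% and 19.2% at canonical starts. Of the 37 other Polycomb genes, 9 had the mark at the canonical start in every WT list at E11.5 (Bcor, Bcorl1, Epop, Pcgf1, Pcgf5, Phc2, Phf19, Rybp and Scml2) and 6 at E17.5. All 4 marked members also had H3K4me3 in every list, and 3 had H3K27ac as well. Cbx7 was the exception, with H3K27ac at its canonical start in 1 of 10 lists.

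The marked genes differed in how the peaks lay. At Cbx2 the H3K27me3 peak ended just upstream of the gene in 9 of 10 lists, covering none of it. Its fold enrichment over input was 4.37 and 3.14 in the earlier WT lists, then 5.65, 4.35 and 4.20 in the later ones. In HUM lists it was 4.49 and 5.06, then 4.98, 4.20 and 4.30. WT samples held 119 to 183 CPM of Cbx2 RNA at E11.5 and 12.6 to 24.7 CPM at E17.5. HUM samples held 140 to 199 CPM and 12.8 to 17.2 CPM. A link between the mark and the RNA was not tested. At Bmi1 the peak was 6609 to 7178 bp long and began inside the gene, H3K27me3 peaks together covered 71.4% to 77.0% of it in the 10 lists, and an H3K4me3 peak of 2882 to 3326 bp spanned the start. At Cbx7 the peak spanned 4151 to 6007 bp. At Cbx8 the fold enrichment was 24.4 and 20.7 in the earlier WT lists, then 17.98, 13.4 and 14.7 in the later ones, above the 99th percentile of every list.

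The region around Cbx2 and Cbx8, which lie side by side on chromosome 11, showed a difference in chromatin by stage. The H3K27me3 peak upstream of the Cbx8 start was 21619 to 23437 bp long in the 4 E11.5 lists and 10905 to 11864 bp in the 6 of E17.5, where further peaks lay beyond it. Together the peaks covered 72.1% to 81.9% of the 30000 bases upstream of Cbx8 in the earlier lists and 61.3% to 69.3% in the later, so the length of the first peak changed far more than the covered share. Of 3151 promoter peaks of this mark 5.33% were shorter at E17.5 without overlap and 35.3% longer, and Cbx8 was the 1 of 4 members that was shorter. A separate peak over Cbx8 itself covered 85.2% to 95.2% and then 67.9% to 70.6% of the gene, with no overlap between the stages. Of 8539 protein-coding genes with any H3K27me3, 10.3% had a lower covered share at E17.5 without overlap, and 22.8% a higher one. Whole lists did not shrink: they covered 38.1 to 65.7 Mb at E11.5 and 48.2 to 95.6 Mb at E17.5. This region was singled out after its values were seen, and the difference was not tested.

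H3K27ac covered more of the Cbx8 start at E17.5. In every E11.5 list 2 separate peaks lay at the start, the stronger of them 420 to 563 bp long, and in every E17.5 list 1 peak of 1503 to 1830 bp spanned it. By the strongest peak at the start, 56.3% of 9767 promoters had a longer peak at E17.5 without overlap. The share of Cbx8 under H3K27ac was at most 11.8% in the earlier lists and 12.3% to 18.2% in the later. H3K27ac widened at many genes, and 50.2% of 15051 genes had a higher covered share at E17.5 without overlap (3.63% lower). At the start of Cbx2 the H3K27ac peak moved the other way, from 1763 to 1981 bp to 1321 to 1749 bp, as did 1.78% of 9767 promoter peaks. RNA of Cbx2 fell, and that of Cbx8 was called only in HUM embryos and there lower. Upstream of Cbx8, each E17.5 list held an H3K27ac peak that began 11151 to 11740 bases from its start (fold enrichment 34.5 to 58.5). The strongest upstream peak in the E11.5 lists had 14.6 to 18.7. H3K27ac covered 3.88% to 6.21% of the 30000 bases upstream in the earlier lists and 19.9% to 24.0% in the later. This stretch was singled out after its values were seen, and the difference was not tested.

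**Figure D5:**
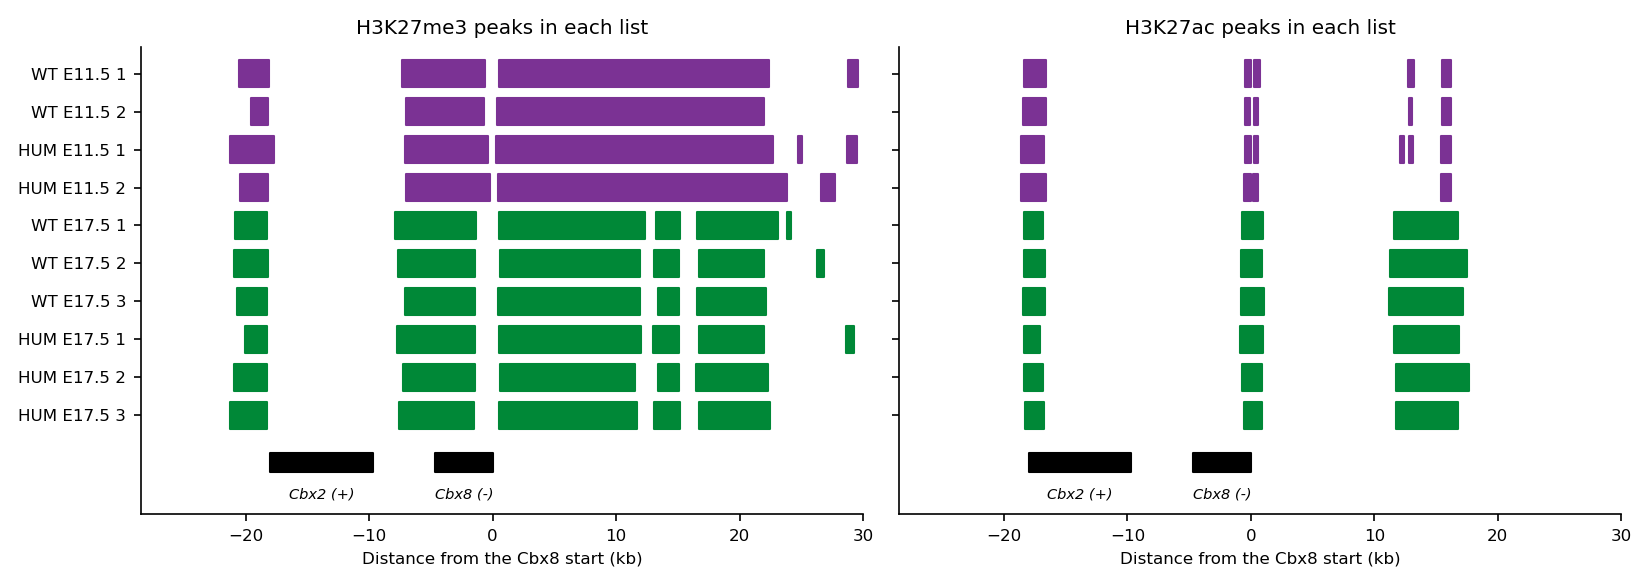
H3K27me3 (left) and H3K27ac (right) peaks in each of 10 lists by distance from the Cbx8 start (kb), purple for E11.5 and green for E17.5, with the genes and their strands in black. The H3K27me3 peak upstream of Cbx8 is 21619 to 23437 bp long in the earlier lists and 10905 to 11864 bp in the later, and the 2 H3K27ac peaks at the Cbx8 start in the earlier lists are 1 peak of 1503 to 1830 bp in the later. In the later lists an H3K27ac peak also begins 11151 to 11740 bp upstream of that start.

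H3K4me3 peaks were shorter at E17.5 without overlap between the stages at 3 of the 10 genes and longer at none, against 21.2% shorter and 21.7% longer over 13562 promoters. At Ezh2 the peak went from 4836 to 5297 bp to 3438 to 3706 bp, at Cbx2 from 3852 to 4700 bp to 2675 to 3301 bp, and at Suz12 from 3393 to 4010 bp to 2517 to 3317 bp. The first 2 genes fell in RNA and Suz12 was not called lower. The share of the gene under H3K4me3 was lower at Ezh2, Eed, Suz12, Cbx2, Cbx8 and Bmi1 and higher at Jarid2, so 6 of 10 were lower against 21.3% of 15229 genes (21.9% higher). At Cbx8 it went from 76.4% to 89.8% to 44.4% to 49.2%, and at Cbx2 from 44.5% to 50.6% to 24.6% to 28.9%. By rank of the H3K4me3 promoter peak no member was separated by stage (5.28% of all higher, 7.31% lower). The Ezh2 promoter kept a strong H3K27ac peak, at the 95.8th to 99.8th percentile of the lists at E11.5 and the 89.5th to 98.7th at E17.5. At Ezh1 the H3K27ac peak ranked lower than at Ezh2, at percentiles 59.4 to 68.6 in the 3 E11.5 lists that held it and 72.5 to 84.1 in the 6 of E17.5. Its fold enrichment was 5.77 to 7.40 and then 7.80 to 14.5. Peak lengths and ranks depend on the depth of each ChIP library, which is unknown here, and ranks also on the length of the list. H3K27ac lists held 32418 to 37311 peaks at E11.5 and 47132 to 77419 at E17.5, and H3K27me3 lists 13850 to 21295 and 19193 to 43700. In these longer lists 1 of 8 members ranked higher by H3K27ac and 2 lower (32.4% and 3.63% of all), and 2 of 4 ranked higher by H3K27me3 (37.7% of all, 6.25% lower), from which nothing is read.

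CTCF, an architectural protein, was mapped at E17.5 only. Peaks lay within 1 kb of the gene start in every WT list at Ezh1, Ezh2, Cbx2, Rnf2 and Bmi1, against 32.5% of protein-coding genes, and at the canonical start of Cbx7 as well (33.9% there). Fold enrichment was 22.5 to 27.8 at Cbx2 and 18.7 to 19.7 at Ezh1 in WT lists, and 21.96 to 24.6 and 15.2 to 17.3 in HUM lists. At Ezh2 it was 3.67 to 6.03 in WT lists, and 1 of 3 HUM lists held a peak (3.70). The WT lists of CTCF were longer, with 61582 to 78661 peaks against 54857 to 59845 in HUM lists, and the genotypes were not tested for CTCF. Jarid2 had none in any list.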

How the data were processed

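RNA from 16 diencephalon samples was sequenced from poly(A)-selected libraries. The authors aligned paired reads to mm39 with STAR 2.7.9a and deposited unnormalized counts per gene on GENCODE release 31 annotation. The unstranded count column (column 2) was used, and reads not counted on a gene (48.1% to 58.4% of each table) entered neither library sizes nor tests. Most of these were unmapped (36.3% to 44.9% of each table). Reads mapped outside annotated exons, those within introns included, were 4.29% to 12.2%. For ChIP-seq, the authors aligned reads with Bowtie2 2.4.2 and deposited MACS2 2.2.7.1 peak lists, 1 per library, of which 36 were used. These deposited lists give each peak's fold enrichment and the −log10 of its p and q values, and a score column that the authors' peak caller derived from them and that was not used. The H3K27me3 lists are in broad form, and their peak-calling setting is not given in the sources used here. The 24 input samples were not analysed here, and ChIP depth is unknown.

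Genes were filtered with filterByExpr, scaled by TMM and tested with edgeR 4.0.16 (R 4.3.3, quasi-likelihood test, Benjamini-Hochberg adjustment over all genes, threshold 0.05), with the 2 groups of a comparison in each fit and all 4 for the interaction. Of 56923 gene IDs 98.8% matched the annotation on GRCm39, the same build, that gave positions, lengths and sequence. The ratio of Ezh2 to Ezh1 was tested by exact permutation, and promoter peaks (at least 1 base within 1 kb of a start) by Fisher's exact test, all two-sided. The scripts were tested on simulated data. Alternatives were DESeq2 1.42.0, its size factors alone, all genes without a count filter, the column of counts for one strand, a replicate block, 1 fit of all samples and leaving out each replicate. GC-content offsets and the canonical transcript start were added after the data had been seen.

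Named genes were the 10 members, the 4 other Polycomb genes with the largest rise and the 4 with the largest fall among those called in WT tissue, Cbx6 beside the Cbx members, and the 5 protein-coding genes nearest in profile to Ezh1 and Ezh2. The members and lists were chosen with earlier results of these data known. The rule would also have named 1 gene that is not reported here and entered no list.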

Additional observations from a re-analysis of the deposited data

Results flagged for a closer look

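WT E17.5 replicate 1 was the extreme sample of its group in 7 measures, with a gap to the next sample above the 95% critical value of Dixon's test. It was highest for Ezh1 (69.8 CPM, next 52.5) and Cbx2 (24.7 CPM, next 13.5). It was lowest for Ezh2 (34.3 CPM, next 58.3), Eed (12.8 CPM, next 26.3), Suz12 (36.6 CPM, next 98.9) and Rnf2 (72.9 CPM, next 165), and for the ratio of Ezh2 to Ezh1 (0.492, next 1.15). The same library held the smallest share of reads mapped outside annotated exons and a GC trend opposite to that of the other 7 libraries of E17.5. Their part in these values was not tested.

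In HUM embryos at E17.5, Cbx8 was lowest in replicate 2 (13.2 CPM, next 17.4) and the ratio of Ezh2 to Ezh1 was lowest in replicate 1 (0.804, next 1.37). In all, 9 of 44 groups of 4 samples stood out in this way, where chance gives about 1 in 20. The 10 genes were measured in the same libraries, so the 7 values of 1 library are not separate observations.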

How the results depend on the processing

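In WT tissue the 5 stage calls among the members stood under all 15 alternatives, with 5 called when any replicate was left out and 8 with GC-content offsets. In HUM embryos 6 to 9 were called. With GC-content offsets the log2 difference took the other sign for Suz12 (-0.13 in WT and -0.060 in HUM), Cbx8 (0.078), Rnf2 (-0.75) and Bmi1 (-0.24) by stage in HUM embryos. By genotype at E11.5 it did so for Suz12 (0.087) and Cbx7 (-0.11), and at E17.5 for Ezh1 (0.023), Cbx2 (0.21), Cbx7 (0.20) and Rnf2 (-0.058). In the interaction it did so for Ezh1 (0.016), Cbx2 (0.11) and Cbx7 (0.26). The cause was not tested.

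Leaving out 1 replicate gave a range that crossed 0 for Cbx8 by stage in WT (-0.089 to 0.30), for Suz12 (-0.41 to 0.032), Cbx7 (-0.029 to 0.14) and Ezh1 (-0.010 to 0.094) by genotype at E11.5, and for Ezh1 (-0.18 to 0.0083), Cbx2 (-0.20 to 0.18) and Cbx7 (-0.16 to 0.056) at E17.5. The genotype difference in the log2 ratio of Ezh2 to Ezh1 ran from -0.12 to 0.14 and was -0.070 between medians. Over all genes DESeq2 called 2 by genotype in the E11.5 tissue and 1 in that of E17.5, and the fit of all 16 samples called 1 in the former. Without WT E17.5 replicate 1, 13994 genes were called by stage in WT, against 10356.

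The labels give no source for the replicate numbers, and in no comparison did all 4 same-numbered pairs have a correlation of deviations over 0.1, so the numbers were not taken to pair the samples. The correlations were -0.55 to 0.39 by stage in WT, -0.24 to 0.36 by stage in HUM embryos, 0.034 to 0.17 by genotype at E11.5 and 0.090 to 0.58 at E17.5, where 3 of 4 were over 0.1 and 2 of 4 samples of each genotype correlated best with their own number. With the replicate block 5 members were called by stage in WT and 9 in HUM embryos (4 higher, 5 lower), and the genotype calls stayed at 0. The stage difference of the ratio then had an adjusted p of 0.0156, from an exact test that flips the signs of the differences within same-numbered pairs.

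Cbx7 rested on at most 123 counts a sample, and the peak lists give no depth.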
